A study of Mus musculus with 6 samples.

Results

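The 45 genes described here lie on mouse chromosome 6 around Cxcl12, the gene that carries the reporter allele of the study, and are 45 of the 31053 features of the count tables. They were chosen by name from that stretch, with the ratio of their levels between both whole-lung libraries of E18.5 already in view. In the mm10 build they span chromosome 6 from 116624016 to 135383173, which is 18.8 Mb, with Cxcl12 at 117168535 to 117181367. Another 287 annotated genes lie between the outermost members and are not in the list. Of the 45 genes, 40 reached 10 CPM (UMI counts scaled to a common total for each class and library) in at least 1 cell class of 1 whole-lung library, 25 did so in every class, and Tmem72, Plekhg6, Eno2, Dyrk4 and Crebl2 did so in none.

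Lungs of mice with DsRed knocked into exon 1 of Cxcl12 were profiled by droplet single-cell RNA sequencing with 3′ tags. Sorted reporter-positive cells came from pooled Cxcl12DsRed/+ lungs of E13.5, E15.5 or E18.5 embryos and of P8 pups, gated to enrich CD31-positive cells and to remove CD45- and EpCAM-positive cells, with CD31-negative reporter cells also present. Unsorted cells came from E18.5 lungs labelled Cxcl12DsRed/DsRed, the homozygous null, and Cxcl12DsRed/+, the heterozygous control, with 2 lungs pooled for each. Every group therefore carries at least 1 reporter allele, no group is wild type, each group is 1 library, and the strain background is not given in the sources used here.

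Cxcl12 encodes a chemokine that acts through the receptors Cxcr4 and Ackr3 and is known in the lung for its part in the growth and arterial patterning of vessels. An allele made in embryonic stem cells of one strain and bred onto another keeps DNA of the first strain on both sides of the target, so that genes near the target can differ between mice that carry the allele on both chromosomes and mice that carry it on one. Such flanking genes are ordinary genes with roles of their own, and in this stretch they include a large gene-dense block of housekeeping, receptor and cell-cycle genes.

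Levels of Cxcl12 itself went against the labels. In endothelial cells the library labelled null held 579 CPM of Cxcl12 (95% Poisson interval 569.8 to 589) and the library labelled control held 5.39 CPM (4.25 to 6.73). The sorted libraries, all with an intact copy, held 994, 743, 1231 and 1123 CPM in endothelial cells, from the youngest age to the oldest. In mesenchymal cells the values were 45.2 CPM in the library labelled null and 0.276 CPM in the library labelled control, in immune cells 4.16 and 0.109 CPM, and in epithelial cells 0.890 CPM and no count, which allows up to 0.286 CPM. The names of the deposited matrices also give these libraries the opposite genotypes, so they are called by their labels throughout and a direction between them is a direction between labels only.

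Total counts per library ran from 63746333 to 117522172 molecules (UMIs). The library labelled null kept 9157 cells with a median of 9030.0 UMIs and the library labelled control kept 8268 cells with 7950.5. Cells were classed by at least 2 UMIs of Pecam1 and Cdh5 (endothelial, 2580 and 1692 cells), 5 of Col1a1 and Col3a1 (mesenchymal, 4452 and 4221), 1 of Epcam (epithelial, 410 and 638) or 1 of Ptprc (immune, 619 and 608), and cells that met several rules were left out. Both libraries shared 140 cell barcodes (1.58% of the smaller), against 0.203% to 0.457% for every other pair of libraries. No classed cell of the library labelled control held Xist without Y-linked transcripts, whereas the library labelled null held both kinds (1070 endothelial cells with Xist and 1021 with Y-linked genes), so it held cells of both sexes. With 1 library a group no test of a difference is possible, and the intervals given cover counting error only.

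Hebp1 and 8430408G22Rik carried the largest endothelial ratio and the position closest to Cxcl12 of the listed genes past 1.5-fold, respectively, and bases before a RefSeq start of each are shown for that reason. Both are from RefSeq on GRCm38.p6, which held an entry for 35 of the 45 genes. The Hebp1 window is chr6:135168216-135168465, minus strand, 57.6% G or C, with the single E-box CACGTG in capitals. It lies inside the gene as annotated for the positions given here (135137522 to 135198022), so it does not precede the first exon of that annotation. The 8430408G22Rik window (RefSeq symbol Depp1) is chr6:116650434-116650608, plus strand, 53.1% G or C, shortened to 175 bases at an annotated exon, with the forkhead-type core GTAAATA in capitals.
Hebp1: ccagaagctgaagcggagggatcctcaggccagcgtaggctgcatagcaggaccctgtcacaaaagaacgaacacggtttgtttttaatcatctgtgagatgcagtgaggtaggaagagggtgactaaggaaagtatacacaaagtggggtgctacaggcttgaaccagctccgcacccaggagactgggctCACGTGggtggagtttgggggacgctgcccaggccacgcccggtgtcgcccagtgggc
8430408G22Rik: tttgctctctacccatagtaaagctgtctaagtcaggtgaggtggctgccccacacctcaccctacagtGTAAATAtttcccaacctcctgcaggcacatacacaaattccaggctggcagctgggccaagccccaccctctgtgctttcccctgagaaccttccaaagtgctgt
Searched on both strands, CACGTG occurred in 6.02% of 32851 promoter windows of 250 bases and GTAAATA in 2.73%. The other motifs searched were in neither window, and GTAAACA occurred in 3.17% of all windows, GGGCGG in 32.7% and CCAAT in 33.8%. A match is a description of letters and not a site of binding.

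Of the 5 members within 1 Mb of Cxcl12, 8430408G22Rik was the 1 past 1.5-fold in any class. That is 1 of 11 pairs of gene and class over the minimum, against 2.35% to 4.13% of all genes by class. Here and below a difference is a log2 ratio of CPM plus 0.5, the library labelled null over the library labelled control, of UMIs summed over the cells of a class. Zfp422, a zinc finger protein at -0.540 Mb (before Cxcl12), was at 83.6 CPM in endothelial cells of the library labelled null and 72.3 CPM in the library labelled control, a log2 ratio of 0.21 (95% interval 0.10 to 0.32). Its log2 ratios were 0.08 in mesenchymal cells (35.9 and 34.0 CPM), 0.13 in epithelial cells (33.3 and 30.5 CPM) and -0.28 in immune cells (17.7 and 21.5 CPM), where values that the authors had corrected for free RNA turned it to 0.53 (11.9 and 8.09 CPM). Hnrnpf, a splicing factor 0.719 Mb after Cxcl12, had log2 ratios of 0.13 in endothelial (530.2 and 484 CPM), 0.15 in mesenchymal (279 and 251 CPM), 0.07 in epithelial (318 and 303 CPM) and 0.03 in immune cells (479 and 470.1 CPM). Rassf4, which has a Ras-association domain, passed the minimum in immune cells alone, at 225 and 238 CPM, a log2 ratio of -0.08 (-0.17 to 0.00). Tmem72, a transmembrane protein at -0.452 Mb, stayed under 1 CPM in every class of both libraries.

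8430408G22Rik, the mouse counterpart of DEPP1 and a known target of FOXO transcription factors, lies at -0.516 Mb, on the side before Cxcl12, and passed the minimum in epithelial and endothelial cells. In epithelial cells it stood at 154 CPM (145 to 163) in the library labelled null and 101 CPM (94.8 to 107) in the library labelled control, a log2 ratio of 0.61 (0.49 to 0.73), which came within 1.5-fold under 3 other ways of counting. In endothelial cells it stood at 457 CPM (449 to 466) and 348 CPM (338 to 358), a log2 ratio of 0.39 (0.35 to 0.44). With the corrected values, the endothelial levels were 528 and 511 CPM, a log2 ratio of 0.05. The mesenchymal and immune values stayed under 5 CPM. Cells with Gja4 or Gja5, connexins known from arterial endothelium, made up 64.7% of endothelial cells in the library labelled null and 45.0% in the library labelled control. Over all endothelial cells Gja4 was itself at 557 and 307 CPM (0.86) and Gja5 at 97.5 and 51.5 CPM (0.91). The share of cells with a UMI can follow the level per cell as well as the cell type, and this was not tested. Among cells with Gja4 or Gja5, 8430408G22Rik was at 581 and 488 CPM, a log2 ratio of 0.25. Among the other endothelial cells it was at 219 and 229 CPM, a log2 ratio of -0.07 (-0.16 to 0.03). Among epithelial cells with Y-linked transcripts it was at 107 and 103 CPM, a log2 ratio of 0.05 (-0.17 to 0.26), with 114 such cells in the library labelled null. Among endothelial cells with Y-linked transcripts it was at 484 and 335 CPM, a log2 ratio of 0.53 (0.47 to 0.59). In epithelial cells with Sftpc, 82.2% and 89.0% of the class, the log2 ratio of 8430408G22Rik was 0.46 (0.33 to 0.60). In those without Sftpc the ratio was 0.96 (0.67 to 1.27), at 261 and 134 CPM. The part of the cell make-up and of the embryos in these ratios was not tested beyond these values.

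Across all classes, 34 of the 40 genes over the minimum stayed within 1.5-fold in each class they were measured in, and the 6 others passed it in 7 pairs of gene and class. In endothelial cells 1 of 35 members was past 1.5-fold (Hebp1), against 2.35% of all genes over the minimum, and the median log2 ratio was 0.03 against -0.02 over all genes. In mesenchymal cells 1 of 31 was past it (Emp1), against 2.68% of all genes, with medians of -0.02 and -0.05. In epithelial cells 1 of 32 was past it (8430408G22Rik), against 4.13% of all genes, with medians of 0.07 and 0.01. In immune cells 4 of 31 were past it (Cdca3, Ncapd2, Foxm1 and Emp1), against 3.70% of all genes, with medians of 0.15 and 0.04. By the higher level of both libraries, 3 of 8 immune members of 10 to 30 CPM were past it, against 6.06% of all genes. From 30 to 100 CPM it was 1 of 9 against 2.19%, and from 100 CPM 0 of 14 against 1.79%. All 7 pairs past 1.5-fold lay on the side of the library labelled null. So did 106 of 195, 137 of 230, 221 of 343 and 216 of 291 of all genes past 1.5-fold, in the same order. The classes come from the same pair of libraries and are not independent, and since the members were selected on this contrast, these counts are a description.

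The plot of ratios along the chromosome shows where the exceptions fall. Of the listed genes past 1.5-fold, 8430408G22Rik is the one within 1 Mb of Cxcl12, Cdca3, Ncapd2 and Foxm1 lie 7.65, 7.99 and 11.2 Mb away, and Hebp1 and Emp1 close the stretch, with Emp1 furthest at 18.2 Mb. The 3 nearest to the threshold on its inside were 8430408G22Rik in epithelial cells (0.61), Emp1 in mesenchymal cells (0.86) and Ncapd2 in immune cells (0.98). The 3 nearest on its outside were Hebp1 in mesenchymal cells (0.55) and Dusp16 in immune (0.49) and epithelial cells (-0.45).

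**Figure D1:**
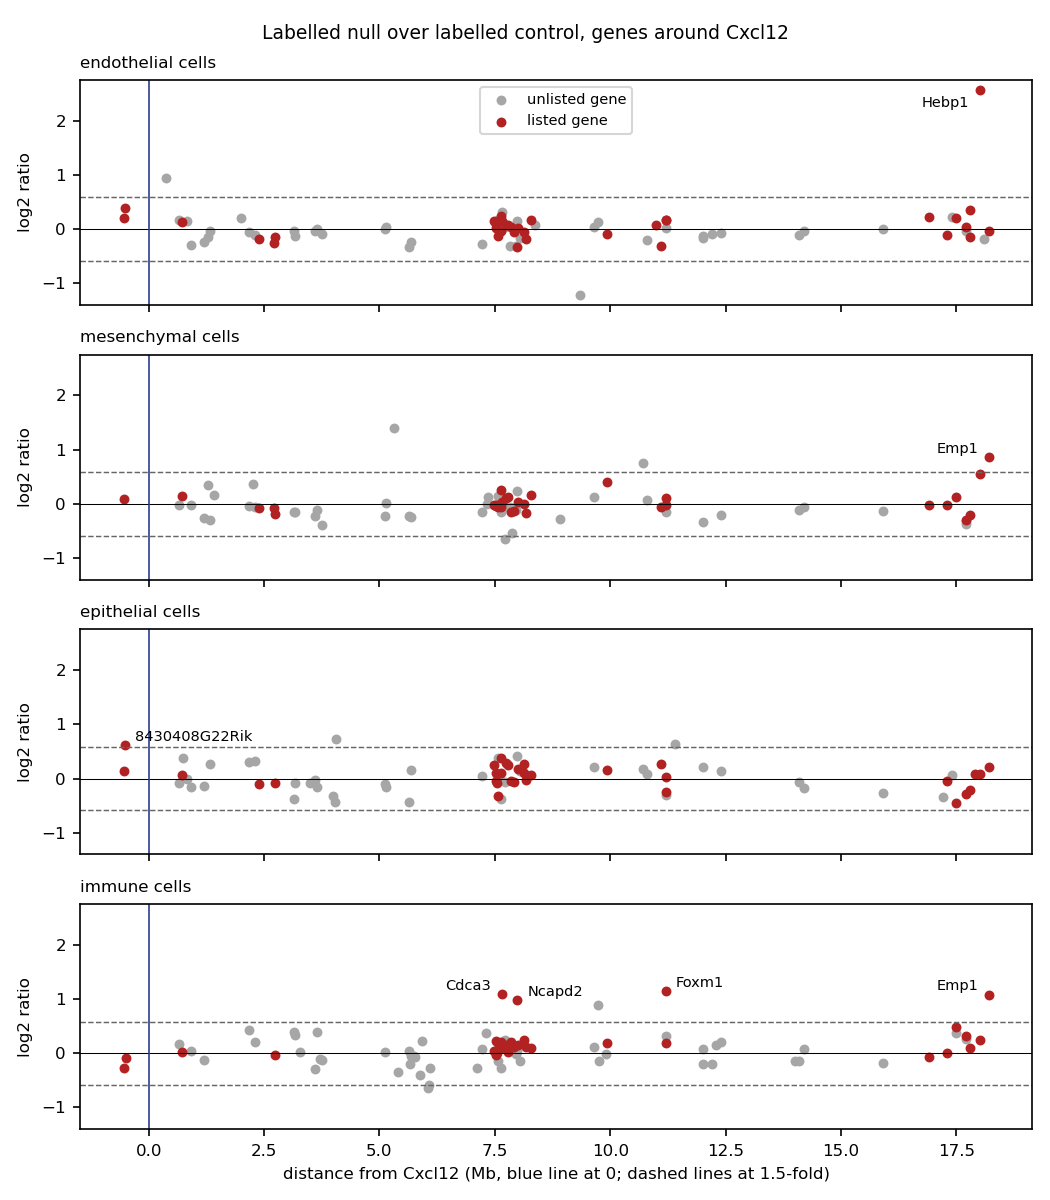
Log2 ratio of CPM, labelled null over labelled control, against distance from Cxcl12 in Mb for each gene of at least 10 CPM in 1 library, in 4 cell classes; red points are listed genes, grey points the unlisted genes among them, and dashed lines mark 1.5-fold. Most red points sit between the dashed lines, with Hebp1 at 2.56 in endothelial cells the highest.

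Hebp1, which encodes a small haem-binding protein whose N-terminal peptide attracts leukocytes, had the largest difference of the list. In endothelial cells it stood at 64.1 CPM (61.0 to 67.3) in the library labelled null and at 10.4 CPM (8.82 to 12.2) in the library labelled control, a log2 ratio of 2.56 (2.38 to 2.87), or 5.91-fold. In mesenchymal cells it stood at 39.0 and 26.4 CPM, a log2 ratio of 0.55 (0.44 to 0.69), which was 1.70 with values corrected for free RNA. Epithelial cells were at 44.3 and 42.0 CPM, a log2 ratio of 0.08 (-0.13 to 0.28), and immune cells, where its level was highest, at 292 and 247 CPM, a log2 ratio of 0.24 (0.16 to 0.32). The endothelial gap was thus not seen at that size in any other class of the same libraries.

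Within the library labelled null, the endothelial level of Hebp1 differed between cells of female and male embryos. The 1070 cells with Xist alone held 125 CPM (118 to 132) and the 1021 cells with Y-linked transcripts alone held 12.5 CPM (10.4 to 14.9), a log2 ratio of 3.27 (3.06 to 3.59), with 141 cells of both kinds of transcript and 348 of neither left out. That ratio ranked 2 of 7956 autosomal genes by size. It rests on counts that also made up the ratio between labels, for which Hebp1 was singled out, so the rank is a description. The 1314 endothelial cells with Y-linked transcripts of the library labelled control held 10.9 CPM (128 UMIs). Compared between libraries in such cells alone, Hebp1 had a log2 ratio of 0.19 (-0.17 to 0.56), so the gap between the labels was carried by the Xist cells of one library. Depth was alike in both kinds of cell (medians of 8644 and 8351 UMIs), as was Cxcl12 (599.6 and 573 CPM). Because 2 lungs were pooled, the sex of the embryo and the embryo itself cannot be told apart.

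The sorted libraries, which the choice of genes did not use, held alike levels of Hebp1 in both kinds of cell. Hebp1 was at 95.2 CPM in Xist cells and 90.3 CPM in cells with Y-linked genes at E13.5, with 65 and 58 cells. It was at 117 CPM in both kinds at E15.5 and at 57.0 and 56.1 CPM at E18.5. At P8, where no cell held Y-linked genes alone, Xist cells were at 9.53 CPM. The Xist cells of the library labelled null were therefore above, and its male cells below, both kinds of sorted cell of the same age. These are levels not corrected for free RNA. Correction took the endothelial level of the library labelled control from 10.4 to 0.106 CPM, and the split by Xist and Y-linked transcripts was not run on corrected values.

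**Figure D2:**
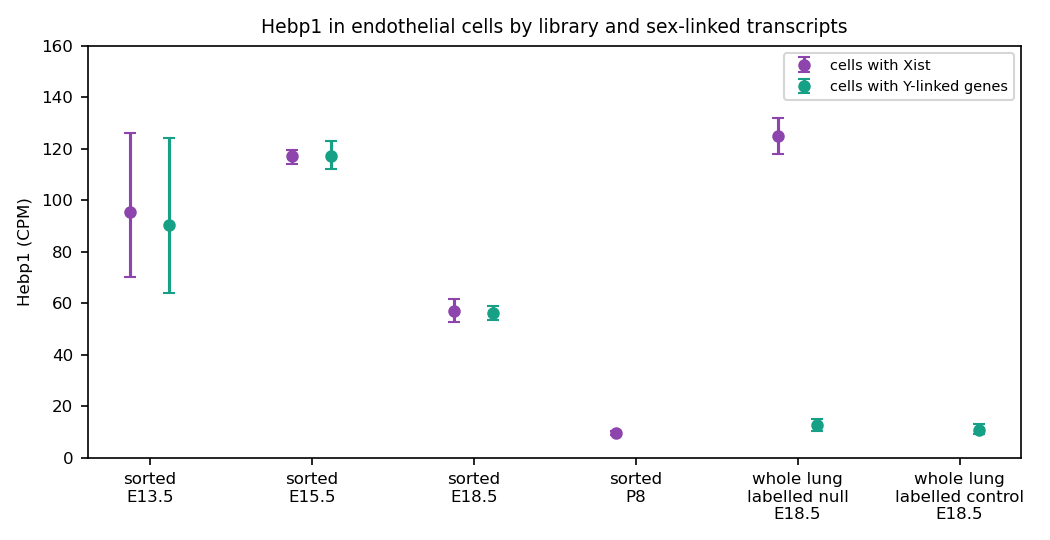
Hebp1 level in CPM in endothelial cells of each library, with cells split into those with Xist and those with Y-linked transcripts; points are levels of summed counts and bars are 95% Poisson intervals. In the library labelled null the Xist cells lie at 125 CPM and the Y-linked cells at 12.5 CPM, while both kinds nearly coincide in each sorted library that has both.

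Over the whole list, Hebp1 was the only member past 1.5-fold between Xist and Y-linked cells of the library labelled null in endothelial cells (1 of 34, against 1.28% of all genes). In mesenchymal cells it was at 48.1 CPM in those with Xist and 28.9 CPM in those with Y-linked genes, a log2 ratio of 0.72 (0.56 to 0.90). In sorted endothelial cells of E15.5 and E18.5, 0 of 34 members passed 1.5-fold between the sexes, against 0.483% and 0.618% of all genes. At E13.5, with few cells, 13 of 33 passed it (39.4% against 31.2% of all genes), 5 higher in Xist cells and 8 lower. In epithelial cells of the library labelled null 7 of 31 passed it (22.6% against 25.7% of all genes) and in immune cells 2 of 32 (6.25% against 5.90%). Epithelial and immune cells with Xist held 51.0 and 318 CPM of Hebp1, and those with Y-linked genes held 35.9 and 288 CPM.

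Split by a UMI of marker genes, in sets that overlap and whose free RNA was not measured, each set of endothelial cells had Hebp1 past 1.5-fold toward the library labelled null, unlike the cells with Y-linked transcripts. Cells with Gja4 or Gja5 had a log2 ratio of 2.15 and the remaining cells 3.06. Cells with Vwf, a marker of large vessels, had 1.77, cells with Nr2f2, a venous factor, 2.69, and cells with Gpihbp1, a capillary marker, 2.77. Cells with Car4 had 3.63, and cells with Prox1, the lymphatic regulator, stood at 68.6 and 3.82 CPM, although these rest on 70 and 50 cells. Proliferating cells with Mki67 had 4.01, at 60.8 and 3.31 CPM. The Car4 set stood at 62.9 and 4.63 CPM, with 84 cells in the library labelled control. In that library Hebp1 was under 10 CPM in all of these sets but those with Gja4 or Gja5 (13.4 CPM) and with Vwf (18.8 CPM). The 8 immune markers summed to 27.2 and 17.9 CPM in endothelial cells, against 7620.4 and 8307 CPM in immune cells. The 1 of the 8 at 0 in endothelial cells of each library was Ptprc, which the class rules exclude there. Here and below, the endothelial, mesenchymal, epithelial and immune marker sets hold the genes of the class rules. Their sums are therefore partly fixed by those rules. In the same endothelial cells the 8 mesenchymal markers summed to 86.4 and 72.8 CPM with 2 past 1.5-fold, and the 6 erythroid markers to 663 and 1352 CPM with 3 past it. The 8 epithelial markers summed to 74.4 and 109 CPM there, with 1 past 1.5-fold. The part of these in the Hebp1 ratio was not tested. Leaving out barcodes shared by both libraries gave a log2 ratio of 2.57. Values that the authors had corrected for free RNA were 62.0 and 0.106 CPM, and counting each cell in every class whose rule it met gave 72.9 and 35.5 CPM, a log2 ratio of 1.03.

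Emp1, a tetraspan epithelial membrane protein at the far end of the stretch, was past 1.5-fold in both mesenchymal and immune cells. Mesenchymal cells held 87.1 CPM (84.2 to 90.0) in the library labelled null and 47.9 CPM (45.5 to 50.3) in the library labelled control, a log2 ratio of 0.86 (0.78 to 0.95). Cells with Pi16 or Dpt, markers of adventitial fibroblasts, had a log2 ratio of 0.75 and the other mesenchymal cells 0.86. Cells with Y-linked transcripts alone gave 79.8 and 48.5 CPM, a log2 ratio of 0.71 (0.60 to 0.83), so the mesenchymal difference was also present within male cells. In the same mesenchymal sums, the 8 mesenchymal markers stood at 9912 and 7641 CPM and 3 of the 8 were past 1.5-fold toward the library labelled null. The 6 erythroid markers summed to 385 and 48.2 CPM there, with 3 of the 6 past 1.5-fold in the same direction. The part of either marker set in the Emp1 ratio was not tested.

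In immune cells Emp1 passed the minimum in the library labelled null alone, at 20.2 CPM (17.4 to 23.2) against 9.24 CPM (7.38 to 11.4), a log2 ratio of 1.08 (0.75 to 1.51). Within the library labelled null, Xist immune cells held 36.9 CPM and immune cells with Y-linked genes 10.1 CPM, and between libraries the latter gave a log2 ratio of 0.16 (-0.40 to 0.72). The 8 epithelial markers summed to 338 and 81.1 CPM in the immune class and the 8 endothelial markers to 74.5 and 35.0 CPM. The 8 mesenchymal markers summed to 83.3 and 50.4 CPM there, with 3 past 1.5-fold, and the 6 erythroid markers to 37.4 and 8.91 CPM, with 2 past it. The part of these markers in the immune ratio was not tested. Epithelial cells with Xist held 111 CPM of Emp1 against 38.8 CPM in those with Y-linked genes. Endothelial cells held 208 and 214 CPM in the libraries labelled null and control, a log2 ratio of -0.04, and epithelial cells 87.5 and 74.9 CPM, a log2 ratio of 0.22 that turned to -0.97 (38.8 and 76.7 CPM) in cells with Y-linked transcripts alone.

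The 3 cell-cycle genes of mitosis were higher in immune cells of the library labelled null and in no other class past 1.5-fold. Cdca3, which promotes entry into mitosis, stood at 65.4 CPM (60.4 to 70.8) and 30.5 CPM (27.1 to 34.3), a log2 ratio of 1.09 (0.89 to 1.31). Ncapd2, a subunit of condensin I, stood at 29.6 CPM (26.3 to 33.3) and 14.8 CPM (12.4 to 17.5), a log2 ratio of 0.98 (0.70 to 1.31). Foxm1, the transcription factor of late cell-cycle genes, stood at 16.3 CPM (157 UMIs) and 7.06 CPM (65 UMIs), a log2 ratio of 1.15 (0.78 to 1.65), and passed the minimum in the library labelled null alone. The annotated span of Foxm1 overlaps Tex52 and Gm44596 on the same strand, although its last 300 bases share no stretch of 60 bases with another gene. The part of this overlap in its count was not tested. The same genes gave log2 ratios of 0.14, -0.33 and 0.01 in endothelial cells, where Foxm1 was under the minimum and Ncapd2 was at -0.63 with values corrected for free RNA.

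The 8 cell-cycle markers moved with them. In immune cells these markers summed to 978 CPM in the library labelled null and 477 CPM in the library labelled control, and 8 of 8 were past 1.5-fold, whereas in endothelial cells they summed to 939.6 and 929.7 CPM with 0 of 8 past it. Immune cells with Mki67 or Top2a made up 38.4% (exact binomial interval 34.6 to 42.4) and 31.7% (28.1 to 35.6) of the class. Among such cells the log2 ratios were 0.70 for Cdca3, 0.76 for Ncapd2 and 0.92 for Foxm1. In the other immune cells all 3 genes fell under 10 CPM in both libraries. Cdca3 was there at 7.84 and 1.88 CPM, a log2 ratio of 1.81 (1.07 to 3.17). Ncapd2 was there at 3.13 and 3.25 CPM (-0.05) and Foxm1 at 0.392 and 0.855 CPM (-0.60). In immune cells with Y-linked transcripts alone the ratios were 1.11, 1.02 and 1.28. None of the 8 markers was in the list.

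**Figure D3:**
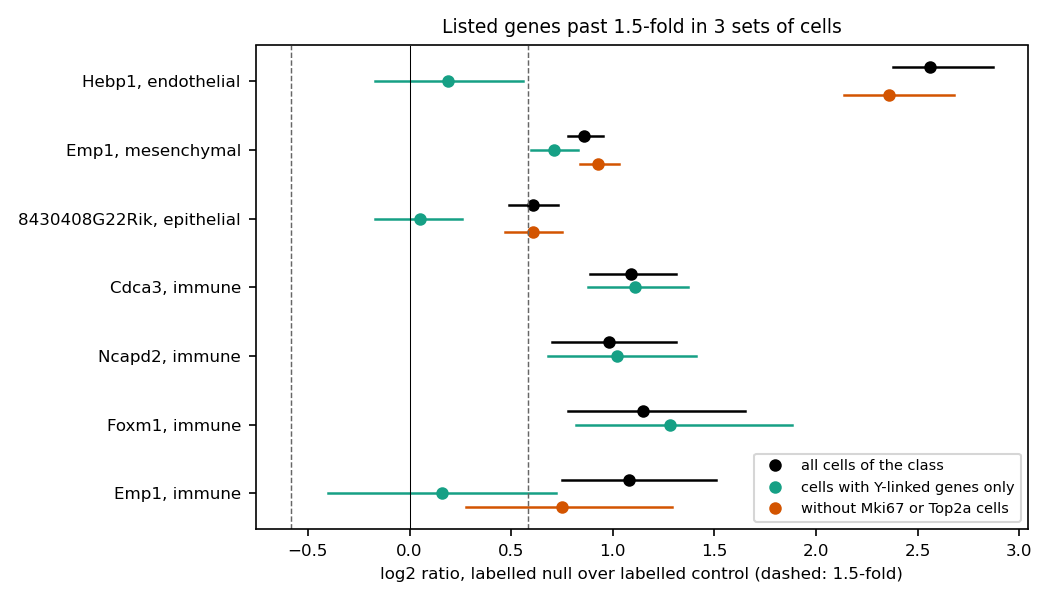
Log2 ratio, labelled null over labelled control, of each listed gene and class past 1.5-fold, in all cells of the class (black), in cells with Y-linked transcripts only (green) and without cells that hold Mki67 or Top2a (orange, shown where the gene kept 10 CPM); bars are 95% counting intervals. Hebp1 is at 2.56 in all endothelial cells and at 0.19 in those with Y-linked transcripts, while the 3 cell-cycle genes are past 1.5-fold in both sets.

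Of the other genes of cell division and repair, Ccnd2, a cyclin of the G1 phase, stood at 91.8 and 69.3 CPM in mesenchymal cells, a log2 ratio of 0.40 (0.33 to 0.48). Its ratios were -0.10, 0.15 and 0.19 in endothelial, epithelial and immune cells. Cdkn1b, the cell-cycle inhibitor p27, went the other way in mesenchymal cells (77.8 and 95.8 CPM, a log2 ratio of -0.30) and epithelial cells (49.6 and 60.6 CPM, -0.29), and stood at 119 and 95.8 CPM in immune cells (0.31). Rad52, a recombination repair factor, was close to the minimum, at 9.69 and 11.7 CPM in endothelial cells (-0.26) and 10.7 and 11.3 CPM in mesenchymal cells (-0.08).

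The 12 receptors and signalling genes gave 33 pairs of gene and class over the minimum, with log2 ratios from -0.45 to 0.49. None was past 1.5-fold, against 2.35% to 4.13% of all genes by class. Tnfrsf1a, the main receptor of tumour necrosis factor, was at 165 and 186 CPM in endothelial cells (-0.18) and 106 and 119 CPM in mesenchymal cells (-0.17). Its neighbour Ltbr, the lymphotoxin beta receptor, was at 54.9 and 57.3 CPM in endothelial cells (-0.06) and 52.5 and 43.9 CPM in immune cells (0.25). Both receptors of the tumour necrosis factor family lay within 1.5-fold in all 4 classes, although with values corrected for free RNA both passed it in epithelial cells, Tnfrsf1a at a log2 ratio of 3.93. With those values 24.2% of all genes passed it in epithelial cells. Cd9, a tetraspanin, was highest in epithelial cells at 1366 and 1311 CPM (0.06) and had ratios of 0.16, 0.16 and 0.09 in endothelial, mesenchymal and immune cells. Scnn1a, a subunit of the epithelial sodium channel that clears lung fluid at birth, was at 137 and 113 CPM in epithelial cells (0.27). Ptpn6, a phosphatase of blood cells, was at 284 CPM in immune cells of both libraries (0.00) and at 15.3 and 16.3 CPM in epithelial cells (-0.09).

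Lrp6, a Wnt co-receptor, had log2 ratios between -0.11 and 0.01 over the 4 classes, and Wnk1, a kinase of salt transport, between -0.18 and -0.03. Dusp16, a phosphatase of stress kinases, was at 22.8 and 16.1 CPM in immune cells and at 9.29 and 12.8 CPM in epithelial cells, and gave ratios of 0.21 and 0.13 in endothelial and mesenchymal cells. Erc1, a scaffold protein of vesicle docking, gave -0.19, -0.08 and -0.10 in endothelial, mesenchymal and epithelial cells. Itfg2, part of the amino acid sensing machinery, gave 0.17, -0.02 and -0.24 in the same classes. The exchange factor Plekhg6 and the kinase Dyrk4 stayed under 3 CPM in every class.

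The 8 genes of transcription, chromatin and cilia gave 23 pairs with log2 ratios from -0.32 to 0.29. Chd4, the remodeller of the NuRD complex, was at 157 and 163 CPM in endothelial cells (-0.05), 153 and 167 CPM in mesenchymal cells (-0.13), 175 and 184 CPM in epithelial cells (-0.07) and 267 and 248 CPM in immune cells (0.11). Ing4, a histone reader, gave 0.03, -0.15, -0.04 and 0.21 in the same order. Atn1, an atrophin co-repressor, gave -0.13, -0.05, -0.32 and 0.19. Its annotated span overlaps Gm45234 on the same strand, with which its last 300 bases share a stretch of 60 bases. With values corrected for free RNA Atn1 turned to 0.81 in endothelial and 0.86 in epithelial cells. Etv6, an ETS repressor, was at 24.2 and 20.6 CPM in endothelial cells (0.23), and Tead4, a Hippo pathway factor, passed the minimum there alone (16.2 and 15.3 CPM, 0.08). Tulp3, which carries receptors into cilia, gave -0.32 in endothelial cells and 0.26 in epithelial cells. Mlf2 gave 0.07, 0.10, 0.29 and 0.16, of which the last 2 were 1.10 and 0.87 with values corrected for free RNA, and Crebl2, a leucine zipper protein, stayed under 10 CPM throughout.

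The 10 genes of metabolism, mitochondria, RNA and protein handling gave 36 pairs from -0.21 to 0.38, none past 1.5-fold, against 2.35% to 4.13% of all genes by class. With values corrected for free RNA 4 of these pairs passed it. They were Tpi1 in mesenchymal (0.63), Lpcat3 and Usp5 in epithelial (0.63 and 1.17) and Fkbp4 in immune cells (1.90). With those values 15.7%, 12.7%, 24.2% and 20.4% of all genes passed it in endothelial, mesenchymal, epithelial and immune cells. Tpi1, a glycolytic isomerase, was at 224 and 189 CPM in endothelial cells (0.25), 206 and 173 CPM in mesenchymal cells (0.25), 363 and 279.5 CPM in epithelial cells (0.38) and 329.9 and 309 CPM in immune cells (0.09). Its share of reads is uncertain because its last 300 bases hold a stretch of 60 bases also found in 2 other annotated features, as do those of 10 other members, Zfp422 and Hnrnpf among them, with other features. None of these 11 was past 1.5-fold in the deposited counts, while with values corrected for free RNA Atn1, Tpi1 and Fkbp4 were. Phb2, a prohibitin of the inner mitochondrial membrane, Mrpl51, a mitochondrial ribosomal protein, and Emg1, a ribosomal RNA methyltransferase, gave ratios in endothelial cells of 0.10, 0.02 and 0.02. Usp5, a deubiquitinase, Cops7a, of the COP9 signalosome, and the chaperone partner Fkbp4 gave -0.03, 0.07 and 0.16 there. Lpcat3, which remodels phospholipids, gave 0.14 there and 0.24 in epithelial cells, and the RNA helicase Ddx47 gave -0.15, -0.21, -0.21 and 0.09. The neuronal enolase Eno2 stayed under 5 CPM.

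Beside Hebp1 and Emp1 the far end of the stretch holds Gprc5a, a receptor of lung epithelium, and Apold1, an early response gene of endothelium. Gprc5a was at 174 and 164 CPM in epithelial cells (0.09), and in endothelial cells at 8.08 and 3.99 CPM, both under the minimum. Apold1 passed the minimum in endothelial cells alone, at 21.8 and 17.0 CPM, a log2 ratio of 0.35 (0.14 to 0.58).

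Position on chromosome 6 was also described with genes other than the listed ones and Cxcl12. Between the outermost members, 44, 43, 39 and 51 unlisted genes passed the minimum in endothelial, mesenchymal, epithelial and immune cells, and 2, 3, 2 and 2 of them were past 1.5-fold. These are 4.55%, 6.98%, 5.13% and 3.92%, against 2.35%, 2.68%, 4.13% and 3.70% of all genes. The largest ratios among those of at least 50 CPM were those of Mfap5, a microfibril protein 5.32 Mb from Cxcl12, at 165 and 62.6 CPM in mesenchymal cells (1.40), and of Clec4n, the lectin receptor dectin-2, at 229.9 and 359 CPM in immune cells (-0.64). Adipor2 in immune cells (0.42), Gapdh in epithelial cells (0.41) and Mical3 in mesenchymal cells (-0.40) followed. Under 50 CPM, and named after their values were seen, were Gm9946, a lincRNA gene 0.378 Mb from Cxcl12, at 37.1 and 19.0 CPM in endothelial cells (0.95), and Kcna5, a potassium channel gene at 9.35 Mb, at 4.30 and 10.6 CPM in the same cells (-1.21). The other 5 under 50 CPM were Tspan11 (0.75) and Lag3 (-0.64) in mesenchymal cells, Usp18 (0.72) and A2ml1 (0.64) in epithelial cells and Rad51ap1 (0.89) in immune cells. Gm9946 was thus nearer to Cxcl12 than any listed gene past 1.5-fold. In windows of 5 Mb with at least 10 genes, the median log2 ratio along chromosome 6 ran from -0.11 to 0.10 in endothelial cells, -0.18 to 0.02 in mesenchymal, -0.18 to 0.12 in epithelial and -0.07 to 0.11 in immune cells. The share of these chromosome 6 genes past 1.5-fold was 3.64% in endothelial cells (14 of 385). This was the highest of 19 autosomes, with chromosome 3 close behind at 3.47%. The share ranked 5 in mesenchymal (3.73%), 7 in epithelial (4.69%) and 5 in immune cells (4.55%). Outside the stretch, the rest of the chromosome stood at 3.52%, 3.34%, 4.64% and 4.65% in endothelial, mesenchymal, epithelial and immune cells.

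In the sorted endothelial cells, where every mouse carried 1 reporter allele, the members were followed over age. From E15.5 to E18.5, 9 of 34 members were higher and 3 lower past 1.5-fold, which is 35.3% against 33.8% of all genes. From E18.5 to P8, 4 of 34 were higher and 3 lower, which is 20.6% against 18.9% of all genes. These shares lie near those of all genes, and with 1 library an age, age and library cannot be told apart.

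8430408G22Rik was at 176, 193, 701 and 186 CPM from the youngest age to the oldest, highest at E18.5. Hebp1 was at 82.6, 117, 55.1 and 9.42 CPM, lowest at P8. Emp1 was at 34.5, 72.0, 188 and 325 CPM and Cd9 at 161, 239, 523 and 947 CPM, both lowest at E13.5 and highest at P8. Cdkn1b, Tnfrsf1a, Tead4 and Lpcat3 were higher at E18.5 than at E15.5 by log2 ratios of 1.58, 1.40, 1.12 and 0.99, and Ltbr and Atn1 by 0.65 and 0.59. Cdca3 and Ncapd2 were lower at E18.5, with log2 ratios of -1.67 and -0.67. Between E18.5 and P8, Apold1 (1.16), Ccnd2 (1.03), Cd9 (0.86) and Emp1 (0.79) were higher at P8, and Hebp1 (-2.49), 8430408G22Rik (-1.91) and Tpi1 (-0.99) were lower. 8430408G22Rik of sorted endothelial cells at E18.5 (701 CPM) stood above the endothelial cells of both whole-lung libraries (457 and 348 CPM). The latter were not sorted on the reporter, and the part of the sort in this gap was not tested.

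**Figure D4:**
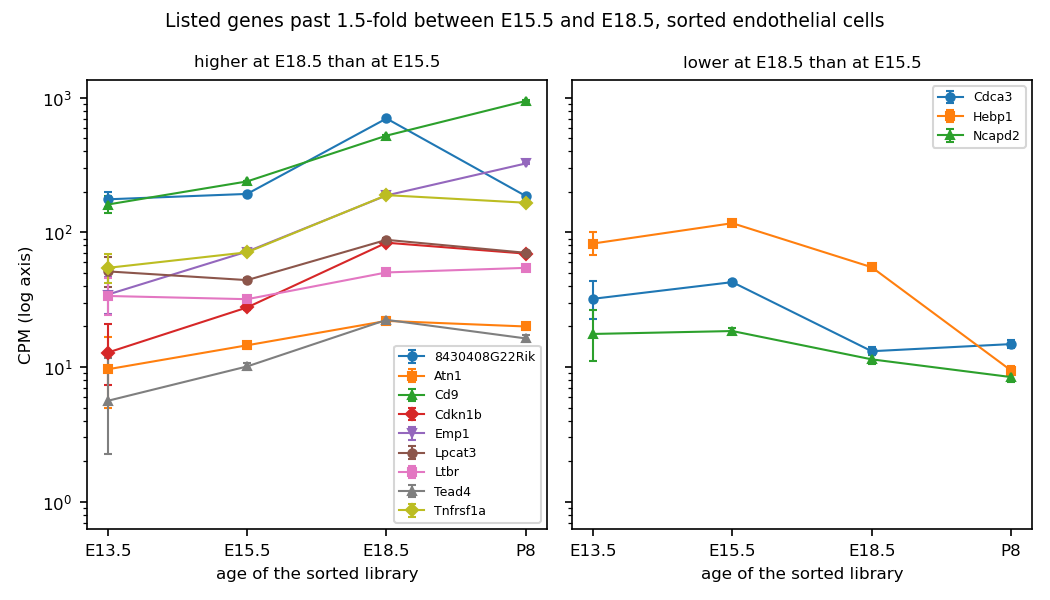
Levels in CPM on a log axis of the listed genes past 1.5-fold between E15.5 and E18.5 in sorted endothelial cells, at 4 ages with 1 library each; bars are 95% Poisson intervals, widest at E13.5 with 173 cells. 8430408G22Rik peaks at 701 CPM at E18.5, while Hebp1 declines from 117 CPM at E15.5 to 9.42 CPM at P8.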

How the data were processed

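The authors deposited UMI counts per gene and cell for 6 libraries, made per the submitters' processing notes with Cell Ranger 3.1 on mm10, with Seurat 3.2.2 also named, and expected counts for both whole-lung libraries after SoupX correction for free RNA, which removed 18.5% and 40.0% of the counts in the libraries labelled null and control. Cells were kept with at least 700 genes and 0.5% to 10% mitochondrial counts, no doublet caller was run, and cells that met the rules of several classes (764 and 681) or none (332 and 428) were left out. UMI counts were summed per class and library and scaled to CPM over all genes. Ratios used CPM plus 0.5 and genes of at least 10 CPM in 1 library of the pair. Intervals are exact Poisson for levels, exact binomial for shares and conditional binomial for ratios (95%). With 1 library a group no test was made. The members and marker lists were chosen with earlier results of these data known. Named in full were genes within 1 Mb of Cxcl12 and members past 1.5-fold, then 3 members on either side of that threshold and the 5 unlisted genes of at least 50 CPM with the largest ratios, and every other member by level or ratio. The scripts were checked on made-up counts. Python 3.11.15, numpy 2.4.6, scipy 1.17.1 and pandas 2.3.3 were used.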

Additional observations from a re-analysis of the deposited data

Results flagged for a closer look

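Ncapd2, the condensin subunit 7.99 Mb from Cxcl12, had log2 ratios of opposite sign in 2 cell classes of the same libraries. It was higher in the library labelled null in immune cells (0.98, interval 0.70 to 1.31) and lower in it in endothelial cells (-0.33, interval -0.54 to -0.13). The difference between the classes was not tested, since each class has 1 library a group. With SoupX-adjusted values they were 0.88 and -0.63. In endothelial cells without Gja4 or Gja5 the ratio was -0.03, and in those with them it was -0.34.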

How the results depend on the processing

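Wherever the gene kept the minimum, none of the 7 differences past 1.5-fold changed sign under the 13 planned settings or those chosen after seeing the data, 2 run on all members and 2 on 1 gene each. Immune Emp1 fell under the minimum with SoupX-adjusted values, Ncapd2, Foxm1 and Emp1 with 50 CPM, Foxm1 without the top 5% of cells, and Cdca3, Ncapd2 and Foxm1 without cycling cells. Among all pairs of member and class, 33 of 123 turned direction with SoupX-adjusted values. In 4 other cases a ratio within 1.5-fold turned and passed it: Atn1 in endothelial (0.81) and epithelial cells (0.86) and Tnfrsf1a in epithelial cells (3.93) with SoupX-adjusted values, and Emp1 in epithelial cells (-0.97) with Y-linked transcripts. Over the 11 planned settings that recompute ratios, 1380 of 1403 pairs stayed on their side of it and 110 turned direction. The counts of members past 1.5-fold that moved by over 1.5 times are given here with the share of all genes, and the cause was not tested. With cells counted in every class they met, mesenchymal and epithelial counts were 2 and 0 (3.28% and 2.98%). With SoupX-adjusted values, endothelial, mesenchymal and epithelial counts were 3, 3 and 6, beside 15.7%, 12.7% and 24.2% of all genes, the immune count was 5 of 28 beside 20.4%, without Emp1, and the mesenchymal median was 0.12. Without haemoglobin, mitochondrial and ribosomal protein genes in the denominator, endothelial and epithelial counts were 2 and 2 (2.82% and 4.93%). A minimum of 50 CPM left 1 in immune cells (2.07%), and no minimum gave 3, 2, 4 and 7 in endothelial, mesenchymal, epithelial and immune cells (5.52%, 3.71%, 12.1% and 10.4%). Centring on the median gene gave 2 in mesenchymal cells (2.76%), and thinning to 2000 UMIs gave 2 there, 4 in epithelial and 6 in immune cells (3.62%, 23.2% and 14.8%). Without cycling cells 1 was left in immune cells (3.59%). With cells of Y-linked transcripts only, chosen after seeing the data, endothelial and epithelial counts were 0 and 4 (2.96% and 19.3%). In those cells Hebp1 in the endothelial, 8430408G22Rik in the epithelial and Emp1 in the immune class fell within 1.5-fold. 8430408G22Rik in epithelial cells fell within 1.5-fold under 3 planned settings (0.58, 0.55 and 0.54), and Ncapd2 in immune cells under thinning (0.48). No paired analysis was possible because the groups compared share fewer than 2 replicate numbers. Epithelial and immune ratios rest on the fewest cells, with 410 to 638 cells a library.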

Other observations

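Among genes outside the list, picked after their values were seen, 4 are given for their gaps between the whole-lung libraries, of which that of Stfa1 was wider than that of Hebp1 in endothelial cells. In immune cells Stfa1, a cysteine protease inhibitor of granulocytes, was at 0.104 CPM in the library labelled null and 101 CPM in the library labelled control, and at 0.220 and 69.3 CPM in cells with Y-linked transcripts alone. In endothelial cells Cd200 was at 151 and 392 CPM and Car4, a carbonic anhydrase of capillaries, at 56.5 and 23.2 CPM, and cells with Y-linked transcripts gave 133 and 389.7 CPM, and 71.4 and 21.6 CPM. In mesenchymal cells Igfbp2, an insulin-like growth factor binding protein, was at 125 and 22.2 CPM, and at 174 and 24.3 CPM in cells with Y-linked transcripts.

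In other genes, also picked after their values were seen, the gap was smaller or larger in cells with Y-linked transcripts. Gm13305, on chromosome 4, was at 53.4 and 1.04 CPM in mesenchymal cells and at 2.28 and 1.10 CPM in those with Y-linked transcripts. Tff3, Retnlb and Spink4, genes of mucous cells, were at 69.3, 113 and 91.1 CPM in epithelial cells of the library labelled null and at 0, 1.97 and 2.46 CPM in those with Y-linked transcripts. BC018473 went the other way in immune cells, at 33.6 and 99.2 CPM overall and 0.220 and 99.0 CPM in cells with Y-linked transcripts.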
